A study of Mus musculus with 8 samples.

Results

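Receptors for glutamate, GABA, glycine, acetylcholine, serotonin and dopamine were selected by name from the GENCODE vM1 annotation of the mouse genome (mm9). All autosomal protein-coding genes of the families *Gria*, *Grik*, *Grin1* to *Grin3*, *Grm*, *Gabra*, *Gabrb*, *Gabrd*, *Gabrg*, *Gabrp*, *Gabrr*, *Glra*, *Chrn*, *Chrm*, *Htr* and *Drd* were taken, which gave 80 of 21418 autosomal protein-coding genes. Another 7 genes of these families lie on the X chromosome and were not included. The libraries came from neural precursor cells (NPCs) differentiated from A2lox.cre embryonic stem (ES) cells, a line in which a construct is placed at a single doxycycline-inducible site and which was grown on feeder cells before differentiation. The comparison was between a non-targeting control (shScr) and an shRNA against *Tet3* (shTet3), each with 2 replicates, and both were induced with 2 µg/ml doxycycline for 5 days. From each replicate, 100 ng of DNA was cut with MspI and split, one portion going straight to bisulphite treatment (BS, where C calls report 5mC plus 5hmC) and the other being oxidised first (oxBS, where they report 5mC alone), which gave 8 libraries. The sources used here do not say whether the replicates were separate clones or cultures, so the p-values measure the spread between these samples, which may be technical. These libraries hold no RNA, and the knockdown of *Tet3* was not checked here.

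Ligand-gated receptors are ion channels built from several subunits, and they carry fast excitatory (AMPA, kainate, NMDA, nicotinic) or inhibitory (GABA-A, glycine) transmission, whereas metabotropic, muscarinic, dopamine and most serotonin receptors signal through G proteins. Most of these genes are expressed in mature neurons, some in muscle or sensory cells, and each cell type uses its own set of subunits. In mammalian cells, CpG-rich promoters are usually free of 5mC while gene bodies carry it, and TET enzymes oxidise 5mC to 5hmC.

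MspI fragments cover CpG-rich sequence, so the receptors were sampled unevenly. With a coverage of at least 10 calls in all 8 libraries, 71 of the 80 receptor genes had a CpG, and 923 promoter CpGs (from 1 kb before to 0.5 kb after any protein-coding transcript start) and 1325 gene body CpGs were measured. The 9 without a covered CpG included *Chrm3*, *Chrm5*, *Chrna2*, *Gabra6*, *Gabrr3*, *Glra3*, *Htr3b* and *Htr5b*. Regions with 3 or more CpGs were compared, which left 43 receptor promoters and 57 receptor bodies, 32 genes having both. The libraries held 42516767 to 61865967 calls, and the median coverage of the receptor CpGs was 46 to 68 calls. Over all CpGs, the oxBS level was 26.3% and 31.2% in shScr against 21.9% and 22.1% in shTet3. The second shScr library lay above the first, and both lay above shTet3. As to cell identity, the mean shScr level ran from 0.327% (*Sox2*) to 34.0% in the promoters of 3 NPC genes and from 9.22% to 62.8% (*Tcl1*) in those of 4 pluripotency genes, so the lists overlapped. *Sox2* was placed in the NPC list here, while the authors of the study plotted it with pluripotency markers.

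Receptor promoters were mostly low in 5mC but not as low as promoters in general. The median shScr level was 8.07% over the 43 receptor promoters and 0.427% over all 12104 promoters, and 25 receptor promoters (58.1%) were below 10%, compared with 80.0% of all promoters. The median ratio of observed to expected CpGs was 0.514 in receptor promoters and 0.613 in all promoters. Across the 43 receptor promoters this ratio and the shScr level had a Pearson correlation of -0.529 (Spearman -0.382), a description across genes that share the same libraries. Receptor bodies had a median shScr level of 57.1%, against 66.2% over all 10121 bodies, and in 31 of the 32 genes with both regions the body was above the promoter. The plot of levels by library shows 42 of the promoters and 56 of the bodies with their 4 oxBS values.

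**Figure D1:**
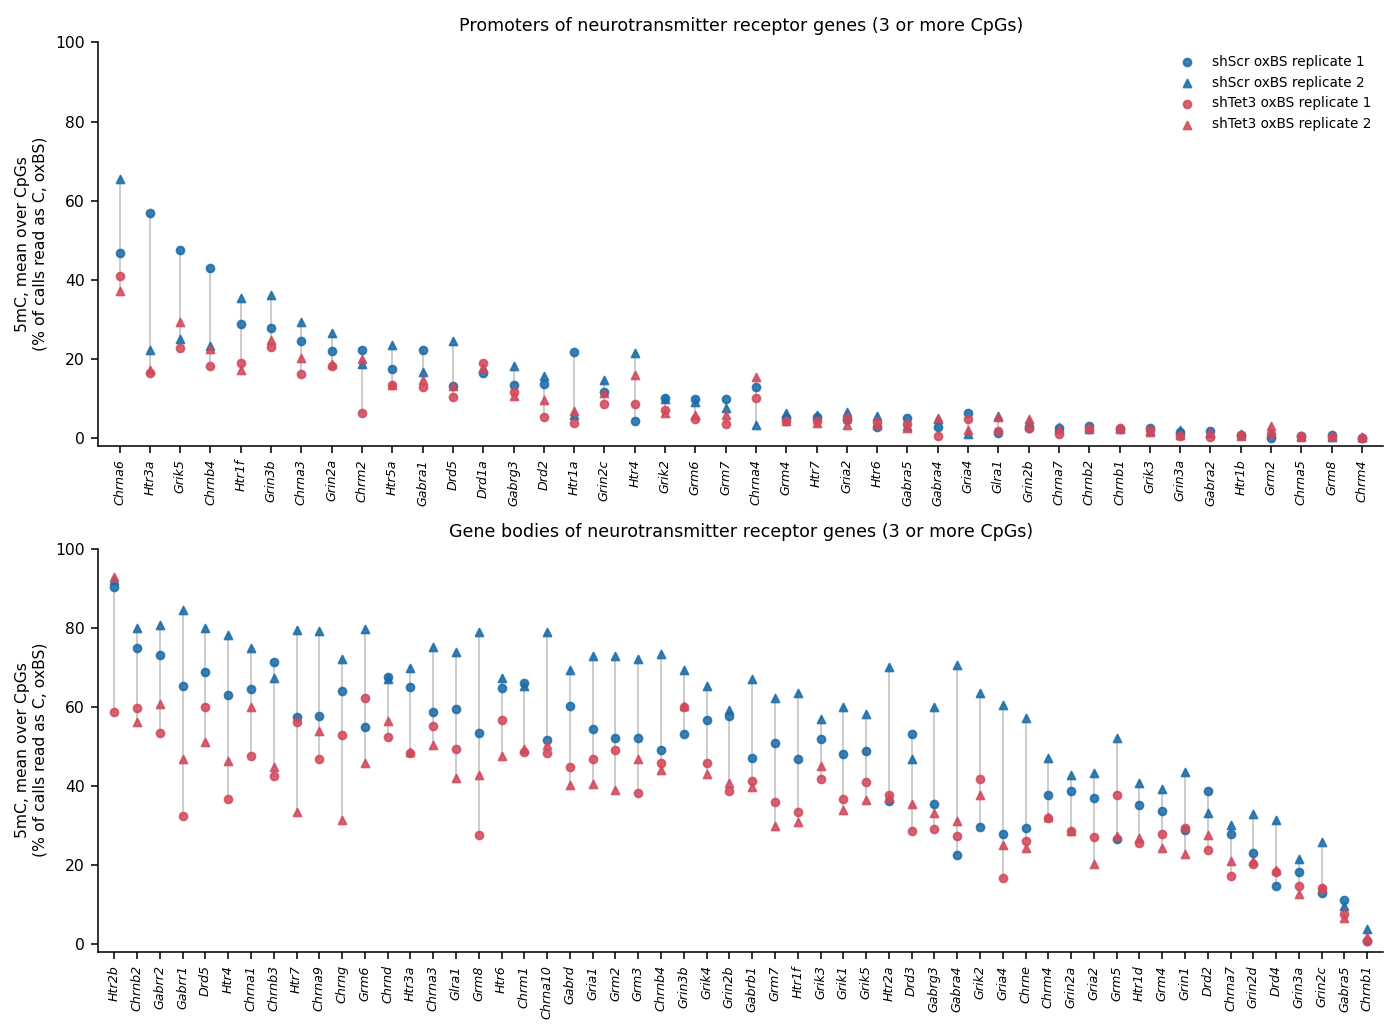
Mean 5mC level (percent of calls read as C) of 42 receptor promoters and 56 receptor gene bodies with 3 or more CpGs, ordered by the shScr mean, with 1 point for each oxBS library (blue shScr, red shTet3, circles replicate 1, triangles replicate 2) and a grey line from the lowest to the highest. In 45 of these bodies and 21 of these promoters both red points lie below both blue points, and in 50 of the bodies the blue triangle lies above the blue circle.

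Receptor promoters were slightly lower in shTet3 than in shScr, but no single promoter passed the test. In the oxBS libraries 36 of 43 receptor promoters had a lower mean in shTet3, compared with 67.1% of all promoters. The median difference (shTet3 minus shScr) was -1.43 percentage points over receptor promoters and -0.109 points over all promoters, and -1.20 and 0.00222 points without the second shScr library. In limma with Benjamini-Hochberg adjustment over all promoters, no receptor promoter and 0% of all promoters were lower at an adjusted p below 0.05. In simulated data a loss of 20 points was planted in only 100 of 12104 promoters, and this test recovered 9% of them. So few shifted promoters make the adjustment strict, and the rate need not hold in these data. True differences may still have been missed. At an unadjusted p below 0.05, 3 receptor promoters (*Grm6*, *Htr1f* and *Drd2*) were lower, 6.98% against 4.27% of all promoters, and none were higher. Both shTet3 libraries lay below both shScr libraries in 21 receptor promoters (48.8%, against 27.1% of all promoters), and above both in 1 (2.33%, against 7.24%). When the median level of all promoters was subtracted from each library, these counts were 20 (46.5%, against 24.5% of all) and 2 (4.65%, against 8.84%). The medians subtracted were only 0.280% and 0.541% in shScr and 0.346% and 0.368% in shTet3. Such a step could hardly change the counts and does not remove a general loss at methylated promoters.

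The size of a promoter's difference went with its level in shScr, as the plot of differences against levels shows. Among receptor promoters below 10% in shScr, 9 of 25 (36.0%) had both shTet3 libraries below both shScr libraries, compared with 19.3% of all promoters in that range, and the median differences were -0.370 and -0.0447 points. Between 10% and 40%, 11 of 17 (64.7%) did so, compared with 49.3% of all, with median differences of -7.15 and -4.56 points. No receptor promoter was above 70% in shScr. Below 10% the median shScr level was 3.15% in receptor promoters and 0.232% in all promoters, so levels were not matched there. The shScr values that set these ranges also enter the differences.

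**Figure D2:**
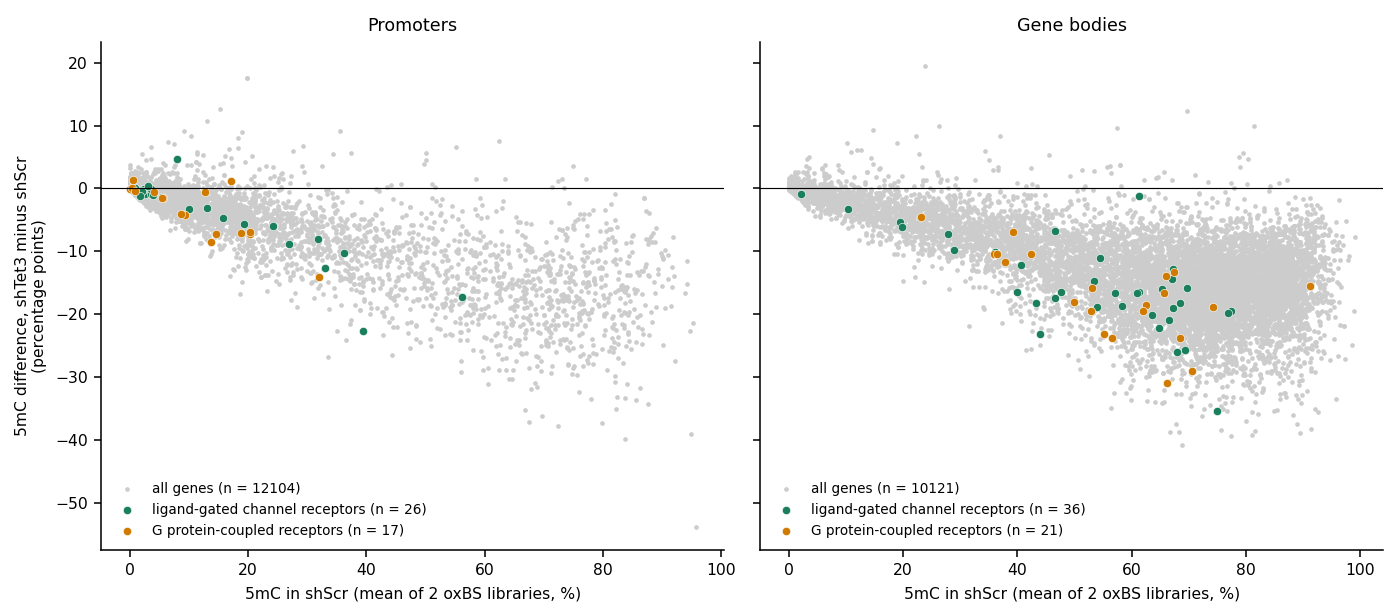
Difference in mean 5mC (shTet3 minus shScr, percentage points, oxBS) against the mean shScr level for promoters and gene bodies with 3 or more CpGs, with all genes in grey, ligand-gated channel receptors in green and G protein-coupled receptors in orange. Receptor regions lie within the grey cloud, 36 of 43 promoters and all 57 bodies below the zero line.

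Among ligand-gated channels, the largest promoter differences were in subunits with partly methylated promoters. In the *Htr3a* promoter (chr9:48707319-48719204 for the gene, minus strand; 3 CpGs), which belongs to a channel-forming serotonin receptor subunit, the level was 57.0% and 22.1% in shScr against 16.4% and 17.2% in shTet3. The second shScr library lay nearer to both shTet3 libraries than to the other shScr library (difference -22.7 points, SE 13.3), and without the first one the difference was -5.26 points. The *Chrna6* promoter (4 CpGs), of a nicotinic subunit known from dopamine neurons, was at 46.8% and 65.6% in shScr compared with 40.8% and 37.2% in shTet3. Both shTet3 values were below both shScr values, with a difference of -17.2 points (SE 8.67; -26.6 points without the first and -7.78 without the second shScr library). In the *Grik5* promoter (14 CpGs), of a kainate receptor subunit, levels of 47.4% and 25.0% in shScr stood beside 22.7% and 29.4% in shTet3, and the groups overlapped (difference -10.2 points, SE 9.40; 0.990 points without the first shScr library). The *Grin3b* promoter (41 CpGs), of an NMDA receptor subunit, had 27.8% and 36.0% in shScr against 23.1% and 24.8% in shTet3, with no overlap (difference -8.01 points, SE 4.63; -12.1 points without the first and -3.90 without the second shScr library). The adjusted p of limma was 0.795 for each of these promoters.

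The nicotinic genes *Chrna5*, *Chrna3* and *Chrnb4* are neighbours on chromosome 9, and their promoters differed in level. *Chrna5* (chr9:54828687-54855586, plus strand) had an unmethylated promoter, with 0.429% and 0.525% in shScr compared with 0.333% and 0.217% in shTet3 over 36 CpGs. The *Chrna3* promoter (9 CpGs) had 24.5% and 29.3% in shScr against 16.1% and 20.1% in shTet3, and its groups did not overlap (difference -8.77 points, SE 3.59). At *Chrnb4* (7 CpGs), levels were 43.0% and 23.1% in shScr compared with 18.2% and 22.4% in shTet3, a difference of -12.7 points (SE 8.17) that was -2.73 points without the first shScr library. All 3 had an adjusted p of 0.795 in limma.

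Among the 5 promoters with the most covered CpGs, 4 had low levels and small differences, and *Grin2a* had neither. *Htr7*, a serotonin receptor coupled to G proteins, had 73 promoter CpGs at 5.18% and 5.75% in shScr against 4.26% and 3.70% in shTet3. *Grm4*, a metabotropic glutamate receptor (62 CpGs), was at 5.06% and 6.35% in shScr compared with 4.12% and 4.22% in shTet3. The nicotinic subunit *Chrna7* (56 CpGs) had 2.41% and 2.78% in shScr against 1.03% and 2.32% in shTet3. In these 3 promoters both shTet3 libraries were below both shScr libraries, although by differences of only -1.49, -1.54 and -0.918 points. The GABA-A subunit *Gabra5* (48 CpGs) had 4.87% and 3.04% in shScr compared with 3.36% and 2.46% in shTet3, which overlap. *Grin2a*, which encodes an NMDA receptor subunit that gains importance as neurons mature, had 50 promoter CpGs at 21.9% and 26.4% in shScr against 18.03% and 18.5% in shTet3 (difference -5.88 points, SE 3.12; -3.60 points without the second shScr library).

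Among the G protein-coupled receptors, *Htr1f* had the largest promoter difference, with 28.7% and 35.4% in shScr compared with 19.0% and 17.2% in shTet3 over 19 CpGs (difference -14.0 points, SE 4.01, adjusted p 0.795 in limma). The *Htr1a* promoter (6 CpGs), of a serotonin autoreceptor, had 21.8% and 5.64% in shScr against 3.78% and 6.73% in shTet3. Its difference of -8.45 points (SE 6.15) was -0.391 points without the first shScr library. The *Grm6* promoter (15 CpGs), of the glutamate receptor of retinal ON bipolar cells, had 9.71% and 9.03% in shScr compared with 4.75% and 5.69% in shTet3, with no overlap (difference -4.15 points, SE 1.18). Higher means in shTet3 by over 1 point were seen in 3 promoters, *Chrna4*, *Grm2* and *Drd1a*, all with overlapping groups, and without the second shScr library the difference of *Chrna4* was -0.0323 points. At the dopamine receptor gene *Drd1a* (9 CpGs) levels were 16.4% and 17.8% in shScr against 18.8% and 17.6% in shTet3. *Grm2* (11 CpGs) had 0% and 1.15% in shScr compared with 1.01% and 2.95% in shTet3, and *Chrna4* (4 CpGs) had 12.8% and 3.33% against 10.2% and 15.4%.

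By family, all 8 serotonin receptor promoters, all 3 kainate, both AMPA and both muscarinic receptor promoters had lower means in shTet3, as did 7 of 8 nicotinic, 5 of 6 GABA-A, 4 of 5 NMDA, 3 of 5 metabotropic glutamate and 2 of 3 dopamine receptor promoters. The single glycine receptor promoter, *Glra1*, had 1.14% and 5.48% in shScr against 1.79% and 5.26% in shTet3. The median difference was -4.23 points in serotonin, -3.14 in NMDA and -0.560 in nicotinic receptor promoters. The median was -1.12 points in ligand-gated channels (26 promoters) and -1.54 points in G protein-coupled receptors (17 promoters). Both shTet3 libraries lay below both shScr libraries in 13 (50%) and 8 (47.1%) of these, against 27.1% of all promoters. The 1 receptor promoter with both above belonged to a ligand-gated channel.

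In the gene bodies all 57 receptors had a lower mean 5mC in shTet3, as did 95.3% of all bodies. The median difference was -16.5 points over receptor bodies and -12.9 points over all bodies. Without the second shScr library these were -9.99 and -7.44 points. By limma no receptor body and 0% of all bodies passed an adjusted p of 0.05. In simulated data this test recovered only 1% of losses of 20 points, planted in 100 of 10121 bodies. In the real libraries lower levels were general, so that rate need not hold. At an unadjusted p below 0.05, 17 receptor bodies (29.8%) were lower, compared with 24% of all bodies. Both shTet3 libraries were below both shScr libraries in 46 receptor bodies (80.7%, against 73.4% of all) and above both in none (0.741% of all). With the median of all bodies subtracted from each library, 5 receptor bodies were below (8.77%, against 7.25% of all) and 12 above (21.1%, against 42.7%). The median difference then became 0.865 points over receptor bodies and 4.50 points over all bodies. This step lowered the shScr libraries by 59.1 and 73.1 points, but the shTet3 libraries by only 49.0 and 48.6 points. That gap is wider than the median body difference of -12.9 points, so the subtraction itself made the median over all bodies positive. The bodies counted as above therefore do not show a gain of 5mC. The mean over all receptor body CpGs was 41.4% and 51.5% in shScr compared with 34.2% and 33.3% in shTet3, and with 2 libraries per group the exact permutation test cannot give a p below 0.33, which it gave here. Without the first shScr oxBS library, limma called 44 of 57 receptor bodies lower at an adjusted p below 0.05 (5025 of all 10121 bodies), and without each of the other libraries none.

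The largest body differences were spread over several families. *Gabrr1*, a GABA receptor rho subunit best known from retina (chr4:33219496-33250563), had 65.3% and 84.4% in shScr against 32.2% and 46.7% in shTet3 over 4 CpGs (difference -35.4 points, SE 9.98). *Grm8*, a metabotropic glutamate receptor (9 CpGs), was at 53.3% and 79.0% in shScr compared with 27.6% and 42.8% in shTet3 (difference -30.9, SE 11.3). In *Htr4* (8 CpGs), a serotonin receptor that raises cAMP, levels were 62.8% and 78.2% in shScr against 36.6% and 46.4% in shTet3. In all 3 genes both shTet3 libraries were below both shScr libraries.

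Several nicotinic subunits followed. *Chrng*, the subunit of fetal muscle receptors (5 CpGs), had 63.9% and 72.0% in shScr compared with 52.8% and 31.3% in shTet3. *Chrnb3* (7 CpGs) had 71.4% and 67.2% in shScr against 42.5% and 44.7% in shTet3, the closest replicates among the 8 bodies with the largest differences (difference -25.7 points, SE 8.08). Both had groups that did not overlap. *Htr7* (7 CpGs) had 57.4% and 79.5% in shScr compared with 56.1% and 33.3% in shTet3, *Grm7* (4 CpGs) 50.7% and 62.2% against 35.8% and 29.7%, and the AMPA subunit *Gria4* (4 CpGs) 27.7% and 60.3% against 16.8% and 25.0%. The first shScr library of *Gria4* lay nearer to both shTet3 libraries than to the second (difference -23.1 points, SE 10.1; -39.4 points without the first and -6.77 without the second). Without the second shScr library the difference was -18.1 points in *Grm8* and -12.7 in *Htr7*, and without the second shTet3 library it was -15.2 points in *Chrng* and -12.3 in *Htr7*. The adjusted p was 0.206 for *Gabrr1*, *Grm8*, *Htr4*, *Chrng*, *Chrnb3*, *Grm7* and *Gria4* and 0.208 for *Htr7*.

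Other bodies, of genes with the most covered CpGs in their family, were also lower in shTet3. Their differences were smaller than those of the 8 bodies above, which were chosen for their size. *Grik3*, a kainate receptor subunit with 128 body CpGs, had 51.9% and 56.9% in shScr against 41.7% and 45.0% in shTet3. *Grm4* (67 CpGs) had 33.7% and 39.2% in shScr compared with 27.7% and 24.3% in shTet3. *Gria2*, the AMPA subunit that limits calcium entry (29 CpGs), had 36.8% and 43.2% in shScr against 26.9% and 20.1% in shTet3. Among dopamine receptors *Drd5* had the most CpGs, with 19 body CpGs at 68.7% and 79.8% in shScr compared with 59.9% and 51.0% in shTet3. In none of these 4 did the groups overlap, and the difference of *Gria2* was -16.5 points (SE 5.74). *Grin2c* (95 CpGs) had 12.9% and 25.9% in shScr against 14.1% and 14.2% in shTet3, so its first shScr library was the lowest of the 4. *Gabra5* (46 CpGs) was low in all libraries, with 11.0% and 9.64% in shScr compared with 7.47% and 6.49% in shTet3 (difference -3.33 points, SE 1.05). The glycine receptor *Glra1* (18 CpGs) had 59.3% and 73.8% in shScr against 49.3% and 42.0% in shTet3, and the muscarinic receptor *Chrm4* (25 CpGs) 37.7% and 47.1% against 31.9% and 32.1%.

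Some receptor bodies did not share the loss in size. *Chrnb1*, a muscle receptor subunit (6 CpGs), was nearly free of 5mC, with 0.617% and 3.82% in shScr compared with 0.747% and 1.78% in shTet3. *Grin3b* (29 CpGs) had 53.1% and 69.3% in shScr against 59.8% and 60.2% in shTet3, a difference of -1.16 points (SE 8.56). The kainate subunit *Grik2* (5 CpGs) had 29.6% and 63.4% in shScr, with both shTet3 libraries (41.8% and 37.7%) between them. These 3 were named after their values were seen. By family the median body difference ranged from -7.20 points in the 7 NMDA receptor genes, whose median shScr level was 36.1%, to -20.1 points in the 3 AMPA receptor genes, leaving aside the glycine receptors with 1 gene, *Glra1* (-20.9 points).

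Single CpGs were tested by logistic regression of methylated and unmethylated calls, which counts only sampling error, and those with q below 0.01 that differed by over 10 points in the pooled calls are called DMPs. Hypo-DMPs, at which 5mC fell in shTet3, made up 44 of 923 receptor promoter CpGs (4.77%, against 2.02% of all promoter CpGs) and 359 of 1325 receptor body CpGs (27.1%, against 24.3% of all body CpGs). No receptor CpG was a hyper-DMP in the oxBS libraries (0.0537% of all promoter and 0.138% of all body CpGs). Both shTet3 libraries were below both shScr libraries at 38 of the 44 promoter (86.4%, against 87.8% for all genes) and 323 of the 359 body hypo-DMPs (89.97%, against 91.9%). With an overdispersion-corrected F test, which uses the spread between replicates, there were 0 hypo-DMPs in receptor regions and in all genes. In simulated calls that test recovered 0% of planted losses of 40 points, so its count of 0 says nothing about the calls. Without the second shScr library fewer body hypo-DMPs were called, and without the first shTet3 library fewer promoter hypo-DMPs, in receptors as in all genes.

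The share of hypo-DMPs differed with the level of the CpG. Among receptor promoter CpGs at 40% to 70% in shScr, 21 of 55 were hypo-DMPs (38.2%, against 25.0% of all promoter CpGs in that range), among the 638 below 10% there was 1 (0.157%, against 0.00495%), and above 70% there were 2 of 14 (14.3%, against 40.6%). Promoter CpGs at 10% to 40% were near the share of all genes, with 20 hypo-DMPs among 216 (9.26%, against 9.05%). A CpG below 10% can hardly fall by over 10 points, so the threshold nearly fixes that share in advance. The shScr values that set the ranges also enter the difference. Receptor body CpGs above 70% in shScr were hypo-DMPs in 226 of 387 cases (58.4%, against 41.7% of all body CpGs in that range). Between 40% and 70% it was 28.1% against 26.7%, and between 10% and 40% 8.16% against 8.20%. CpGs of the same gene are neighbours on the same fragments and are not independent, and *Grik3* (40), *Grik4* (36), *Grik5* (23) and *Grin2b* (22) held the most of the 359 body hypo-DMPs.

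Of the regions with 3 or more CpGs, 17 of 43 receptor promoters (39.5%, against 18.9% of all) and 53 of 57 receptor bodies (93%, against 79.1% of all) held a hypo-DMP. Of the promoters, 7 held 3 or more hypo-DMPs (16.3%, against 6.5% of all promoters), namely *Grin2a* (8), *Drd5* (5), *Drd2* (4), *Grik5*, *Grin2c*, *Grin3b* and *Htr3a* (3 each). In bodies 36 of 57 did (63.2%, against 51% of all). Coding exons held 134 hypo-DMPs among 504 receptor body CpGs (26.6%), introns 218 among 719 (30.3%) and untranslated exons 7 among 102 (6.86%). No share over all genes stands beside these 3, so they describe receptor CpGs only. The shScr levels of these 3 classes were 40.1% and 51.7%, 44.4% and 53.9%, and 26.6% and 33.7%.

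Levels differed with distance from the transcript start, as the plot by distance shows. Within 500 bases before a start, the receptor CpGs averaged 5.72% and 7.11% in shScr compared with 3.85% and 4.92% in shTet3, and 12 of 289 were hypo-DMPs (4.15%). From 500 to 1000 bases after it the averages were 23.9% and 26.2% in shScr against 19.1% and 18.1% in shTet3, and 33 of 241 were hypo-DMPs (13.7%). From 2 to 5 kb after it they were 49.6% and 65.9% in shScr compared with 46.6% and 45.6% in shTet3. There the first shScr library was close to both shTet3 libraries. The shares by distance are for receptor CpGs only, with none over all genes beside them.

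**Figure D3:**
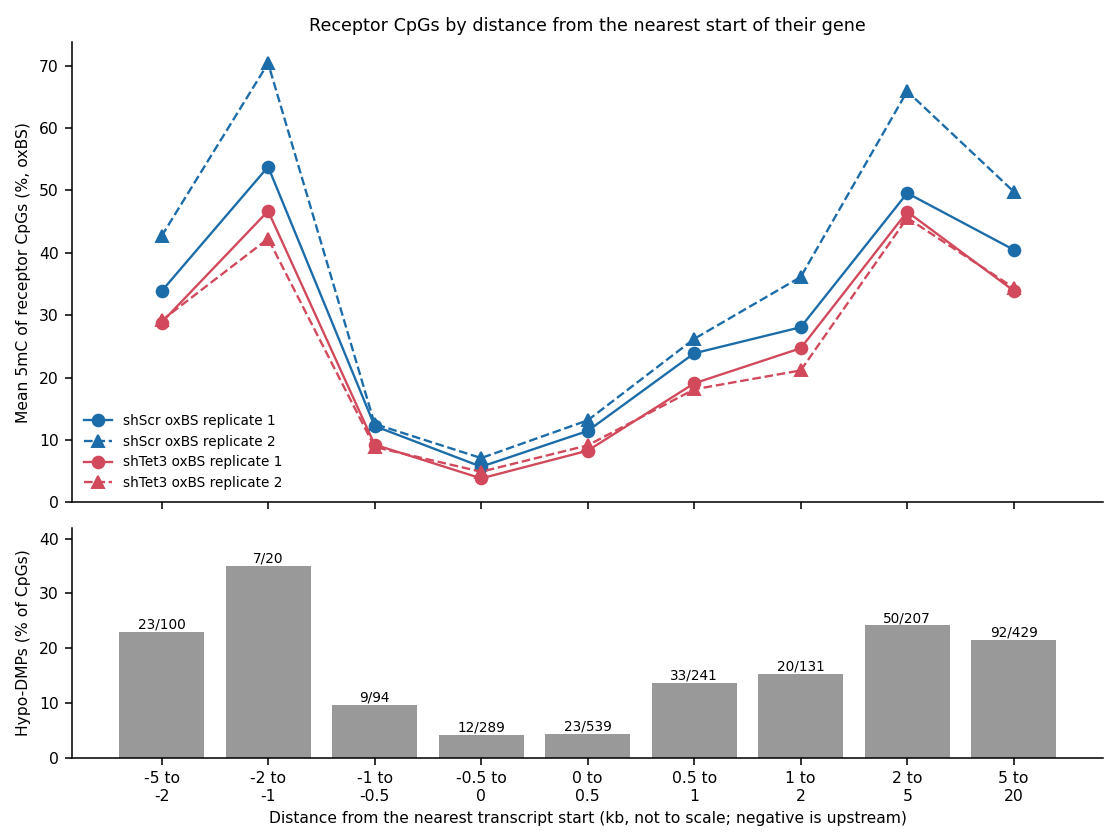
Mean 5mC of receptor CpGs (percent, oxBS, 1 line per library) and share of hypo-DMPs (bars, with hypo-DMPs over CpGs) by distance from the nearest transcript start of the gene in kb; CpGs over 1 kb upstream lie in genes with a further, later start. Levels are lowest in the 500 bases before the start (3.85% to 7.11%) and the share of hypo-DMPs is lowest there too, at 4.15%.

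The 6 promoter hypo-DMPs with the largest pooled differences and no overlap between groups were in 5 genes. At *Grik5* (chr7:25857236, untranslated first exon) 5mC was 61.5% and 39.1% in shScr against 7.69% and 4.17% in shTet3, from 23 to 26 calls per library (difference -45.0 points, q = 6.01e-06). The CpG of *Gabrg1* (chr5:71234059, at -203 bases from the start) had 76.2% and 40% in shScr compared with 19.2% and 10% in shTet3 (-41.3 points, q = 0.000339). In a coding exon of *Grin2a* near a later start, the CpG at chr16:9992375 had 55.6% and 73.3% against 23.1% and 37.8%, and that at chr16:9992414 had 50% and 70% against 25.0% and 30.4%. The *Drd5* CpG (chr5:38711237) had 60.9% and 68.9% against 32.1% and 30.9%, and the *Htr3a* CpG (chr9:48719194) 58.3% and 21.4% against 16.4% and 9.76%. In the BS libraries the pooled differences at these 6 CpGs were -17.3, -12.7, -23.2, -29.6, -12.0 and 7.53 points in the same order.

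Runs of at least 3 hypo-DMPs within 160 bases that do not overlap an untranslated exon are shown because neighbouring CpGs were called together there. The mm9 sequence is given 5′ to 3′ on the strand of the gene, with the hypo-DMPs in capitals and other CpGs in lower case. The promoter runs lie at *Grin2a* (chr16:9995663-9995850, minus strand, upstream of the gene), *Drd5* (chr5:38711135-38711253, plus strand, in the coding exon) and *Drd2* (chr9:49148412-49148585, plus strand, upstream of the gene).
Grin2a: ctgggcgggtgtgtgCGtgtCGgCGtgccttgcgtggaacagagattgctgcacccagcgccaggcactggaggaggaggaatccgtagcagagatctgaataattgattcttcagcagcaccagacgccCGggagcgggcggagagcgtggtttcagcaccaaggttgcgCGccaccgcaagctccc
Drd5: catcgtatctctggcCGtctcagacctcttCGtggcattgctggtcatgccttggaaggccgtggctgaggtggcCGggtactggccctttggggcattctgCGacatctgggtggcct
Drd2: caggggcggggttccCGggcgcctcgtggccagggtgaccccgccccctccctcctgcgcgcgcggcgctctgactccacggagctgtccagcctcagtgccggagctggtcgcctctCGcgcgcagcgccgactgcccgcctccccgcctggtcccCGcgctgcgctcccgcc
Over the 5 hypo-DMPs of the *Grin2a* run, at -820 to -664 bases from the start, the mean was 30.7% and 30.8% in shScr against 13.0% and 12.02% in shTet3. The 4 of the *Drd5* run had 44.5% and 77.5% in shScr compared with 27.3% and 27.0% in shTet3. The 3 of the *Drd2* run had 14.1% and 10.7% in shScr against 1.91% and 3.52% in shTet3. The replicates of *Grin2a* were closest and those of *Drd5* in shScr farthest apart, and the coverage of these CpGs was 20 to 128 calls in an oxBS library. In BS the mean difference was -6.71 points in the *Grin2a* run, -18.7 in the *Drd5* run and 2.50 in the *Drd2* run. The BS levels of the *Drd2* run were 1.05% and 3.69% in shScr against 2.89% and 6.84% in shTet3, so its loss was seen in oxBS only. Its CpG at chr9:49148530 had BS below oxBS in shScr, which 5hmC cannot give.

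The longest runs in bodies, 9 hypo-DMPs each, were in a coding exon of *Gabrr2* (chr4:33172530-33172716, plus strand) and an intron of *Grik3* (chr4:125295081-125295266, plus strand).
Gabrr2: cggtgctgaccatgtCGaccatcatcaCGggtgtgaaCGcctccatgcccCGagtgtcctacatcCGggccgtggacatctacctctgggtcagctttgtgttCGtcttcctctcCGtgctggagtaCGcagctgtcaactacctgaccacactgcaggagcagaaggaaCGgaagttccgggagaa
Grik3: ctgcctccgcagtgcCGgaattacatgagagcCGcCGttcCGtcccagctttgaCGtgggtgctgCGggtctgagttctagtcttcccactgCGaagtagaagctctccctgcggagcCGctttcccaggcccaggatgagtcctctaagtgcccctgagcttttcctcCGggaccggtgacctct
The *Gabrr2* run had 76.7% and 84.0% in shScr compared with 53.5% and 59.1% in shTet3. The *Grik3* run had 79.0% and 92.5% in shScr but 41.4% and 81.8% in shTet3, so that one shTet3 library lay above the first shScr library although all 9 CpGs were called. The receptor promoter with 20 or more CpGs and the lowest shScr level was that of *Chrna5*, and a stretch of its coding exon (chr9:54829424-54829515, plus strand) is shown for contrast, with its 11 covered CpGs in capitals.
Chrna5: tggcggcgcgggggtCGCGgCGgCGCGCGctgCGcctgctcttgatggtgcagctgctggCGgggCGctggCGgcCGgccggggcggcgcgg
These CpGs had 0.193% and 0.411% in shScr against 0.501% and 0.143% in shTet3.

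**Figure D4:**
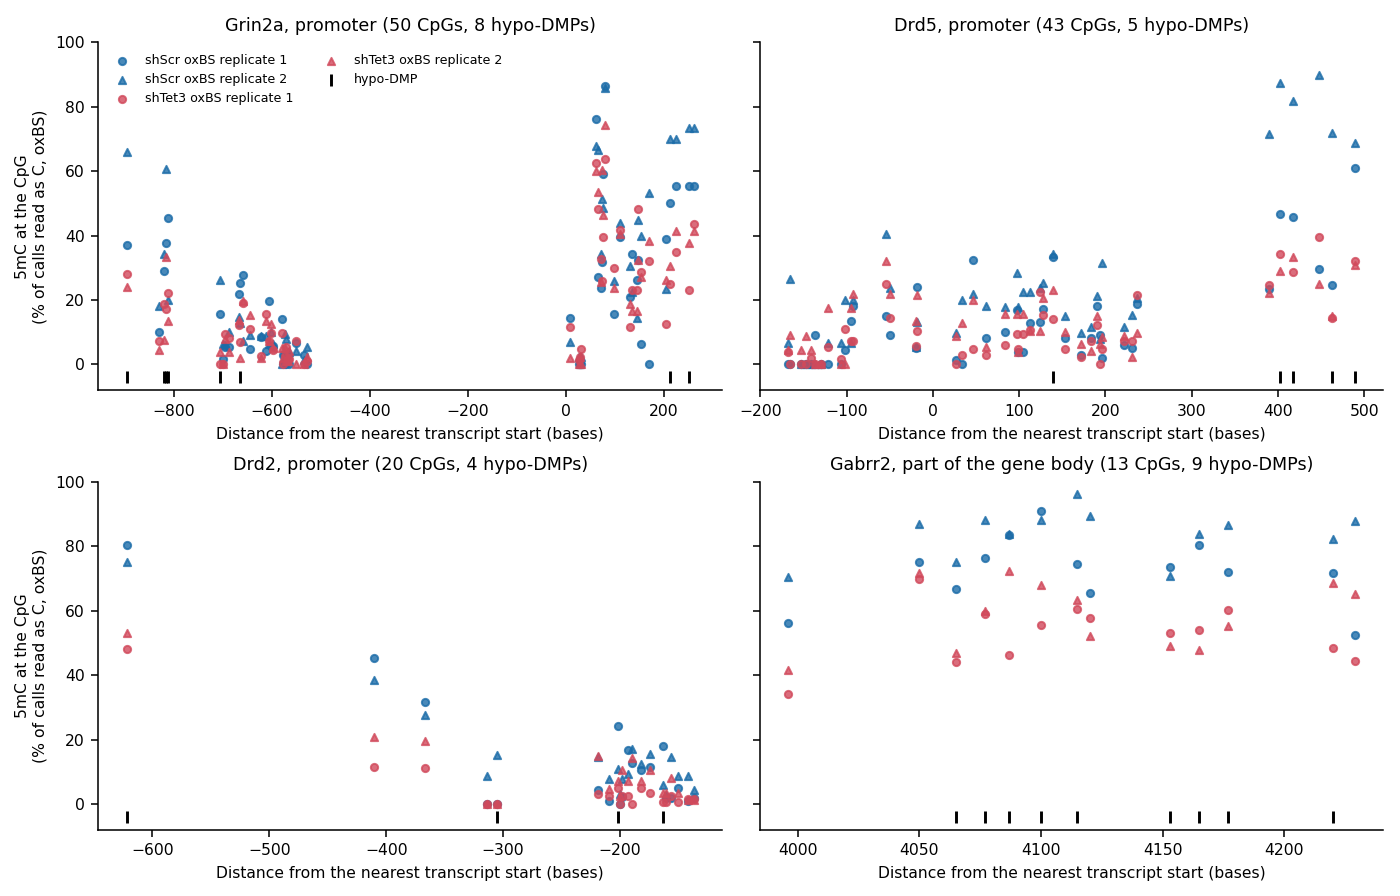
5mC at each covered CpG (percent, oxBS, 1 point per library, colours as in the plot of levels) against the distance from the nearest transcript start in bases, for the promoters of *Grin2a*, *Drd5* and *Drd2* and part of the *Gabrr2* body; black ticks mark hypo-DMPs. The blue shScr points lie above the red shTet3 points at the marked CpGs, by 33.8 points on average in the *Drd5* run.

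The BS libraries, which read 5mC and 5hmC together, gave lower levels in shTet3 as well. Both shTet3 BS libraries were below both shScr BS libraries in 16 of 43 receptor promoters (37.2%, against 29.2% of all) and 41 of 57 bodies (71.9%, against 74.9%). This was so in BS and oxBS together in 10 promoters (23.3%, against 14.2%) and 35 bodies (61.4%, against 63.1%). At an unadjusted p below 0.05 in limma, no receptor promoter (5.2% of all) and 7 bodies (12.3%, against 25.1%) were lower in BS, and none passed at an adjusted p below 0.05. The median BS difference was -1.39 points in promoters and -14.6 points in bodies. BS hypo-DMPs numbered 31 in receptor promoters (3.36%, against 1.98%) and 329 in bodies (24.8%, against 25%), and 2 receptor CpGs, in *Drd2* and *Grin2a*, were BS hyper-DMPs (0.089%, against 0.0667% of all CpGs).

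The oxBS hypo-DMPs were usually lower in BS too, though by less. Of the 44 in promoters, 37 had a lower BS level in shTet3 (84.1%, against 91.7% for all genes) and 7 were also BS hypo-DMPs (15.9%, against 37.6%), with median differences of -22.2 points in oxBS and -10.2 points in BS. Of the 359 in bodies, 345 were lower in BS and 165 were BS hypo-DMPs (46.0%, against 49.9%). The oxBS values chose these CpGs, so a smaller size in the other libraries is a description. The *Drd2* promoter stood apart, with 13.6% and 15.5% in shScr compared with 5.12% and 9.65% in shTet3 in oxBS, but 9.33% and 9.40% in shScr against 9.67% and 10.3% in shTet3 in BS. In *Htr3a*, the BS levels were 39.6% and 9.98% in shScr compared with 27.8% and 20.6% in shTet3, a difference of -0.609 points.

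**Figure D5:**
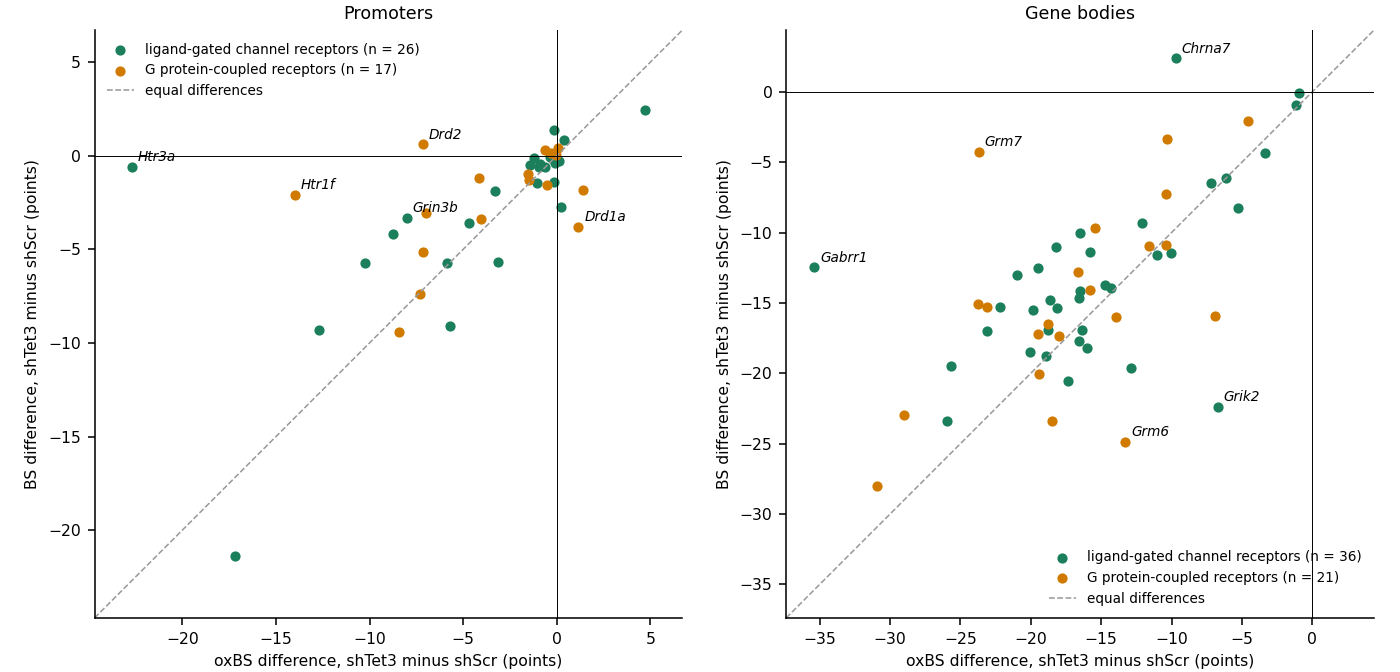
Difference between shTet3 and shScr (percentage points) in the BS libraries against that in the oxBS libraries for receptor promoters and bodies with 3 or more CpGs, with ligand-gated channels in green, G protein-coupled receptors in orange and a dashed line where both are equal; the 5 regions farthest from that line in each panel are named. Most points lie near the line, with Pearson correlations of 0.595 over 43 promoters and 0.599 over 57 bodies of the same DNA samples, while *Htr3a* and *Gabrr1* have a smaller difference in BS.

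The excess of BS over oxBS, an estimate of 5hmC, was rarely large enough to detect at single receptor CpGs. In shScr 5 receptor CpGs had BS above oxBS (0.222%, against 0.337% of all CpGs) and 5 had BS below oxBS (0.222%, against 0.171%), which 5hmC cannot give. In shTet3 the counts were 3 above (0.133%, against 0.0276%) and 0 below (0.0157% of all). The 5 shScr CpGs with BS above oxBS lay in the bodies of *Drd3*, *Gria2*, *Grik4*, *Grik5* and *Grin2c*. At the *Gria2* CpG (chr3:80604767), BS levels were 44.5% and 36.8% and oxBS levels 19.4% and 28.3% in shScr. No receptor region showed a change of BS minus oxBS between the shRNAs at an adjusted p below 0.05 in limma, and at an unadjusted p below 0.05 there were 1 promoter, *Drd2* (2.33%, against 2.47% of all), and no body (0.395% of all). For the *Drd2* promoter the change was 7.76 points (SE 2.64, adjusted p 1). In shScr its BS levels lay below its oxBS levels, so this change cannot be read as 5hmC.

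Genes that work with the receptors were also mostly lower in shTet3, as were genes in general. Of 64 listed genes for related receptors, scaffolds, auxiliary subunits, transmitter synthesis, transporters and degradation, 49 promoters and 53 bodies had 3 or more CpGs, and none passed the adjusted p in limma. Of the promoters 37 had a lower mean in shTet3 (75.5%, against 67.1% of all promoters), 28 of them without overlap between the groups (57.1%, against 27.1%). Of the bodies 52 had a lower mean (98.1%, against 95.3% of all bodies), 46 without overlap (86.8%, against 73.4%). The largest promoter difference was in *Slc17a8*, a vesicular glutamate transporter, with 59.5% and 72.1% in shScr against 38.7% and 43.4% in shTet3. The body of *Gabbr1*, a GABA-B receptor subunit (3 CpGs), was the only one of the 53 above in both shTet3 libraries, at 13.8% and 7.93% in shScr compared with 16.8% and 16.6% in shTet3. The transporters had a median promoter difference of -7.10 points at a median shScr level of 24.9%, and the scaffolds -0.184 points at 3.36%. In the 18 cell type marker genes, 10 of 11 promoters (90.9%) and 12 of 13 bodies (92.3%) were lower in shTet3, 4 (36.4%) and 8 (61.5%) of them without overlap, and none passed the adjusted p. By group, promoters were lower in 3 of 3 neural precursor, 3 of 4 pluripotency and 4 of 4 mesoderm and endoderm genes. Their part in the receptor differences was not tested.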

How the data were processed

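Reduced representation BS and oxBS libraries of 2 shScr and 2 shTet3 NPC samples were used. Per the labels and the submitters' processing notes, the authors trimmed reads with Trim Galore, mapped them to mm9 with Bismark and used methylKit; their versions are not given in the sources used here. Each deposited file holds, for each CpG, its coverage as a count and the percent that was C or T. All 8 files listed the same 757812 CpGs, and percent times coverage gave whole methylated calls. CpGs with coverage of at least 10 in all 8 libraries (612975) were kept.

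The mean percent of each promoter or body with at least 3 CpGs, every CpG weighted equally, was compared with limma 3.58.1 (trend, R 4.3.3), with Benjamini-Hochberg adjustment over all regions of that kind, promoters or bodies. Single CpGs were tested by a likelihood ratio test in a logistic model of the calls without overdispersion (DMP: q below 0.01, over 10 points). BS and oxBS were compared within an shRNA in the same way. Python 3.11.15, numpy 2.4.6, scipy 1.17.1, pandas 2.3.3 and matplotlib 3.10.9 were used. The statistics were tested on simulated data. There limma recovered 9% of promoters and 1% of bodies with a planted loss of 20 points, and 0% of either with 10 points. A region that did not pass may therefore still differ. The likelihood ratio test recovered 75% of CpGs with a loss of 40 points and 19% with 20 points. Each loss was planted in 100 promoters, 100 bodies or a small part of the CpGs. The adjustment is stricter there than where losses are general, so these rates need not hold in the real libraries. Reads carry no molecular identifiers, and the single-CpG tests cover counting error only. The SEs of promoters and bodies come from limma and the spread between replicates. Sequences were read from the mm9 genome.

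Members and gene lists were chosen with earlier results of these data known. Named regions were the 8 promoters and 8 bodies with the largest differences, up to 5 rises over 1 point, the 5 promoters with the most CpGs, the gene of each family with the most covered CpGs, 6 single promoter CpGs and the members without CpGs; a few genes are not reported here by name. Others are said to be chosen after their values were seen, or illustrate a count. Deviations from group means correlated between BS and oxBS of the same number (r = 0.517 in shScr, 0.260 in shTet3), which share DNA, but not between shScr and shTet3 (r = -0.0409 in oxBS, -0.0343 in BS), so the shRNAs were compared unpaired. Alternatives were other coverage and CpG minimums, promoter widths, weightings and tests, leaving out each library, and, added after seeing the data, subtracting each library's median.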

Additional observations from a re-analysis of the deposited data

Results flagged for a closer look

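In the *Drd2* promoter the oxBS and BS libraries moved in opposite directions, with all libraries of one shRNA on one side of those of the other. The oxBS difference (shTet3 minus shScr) was -7.15 points and the BS difference 0.607 points. The test of the change between BS and oxBS gave an adjusted p of 1 in limma. No cause was tested.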

How the results depend on the processing

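With an overdispersion-corrected F test, 0 hypo-DMPs were called in receptor promoters and 0 in bodies, and 0 CpGs had BS above or below oxBS in shScr or above it in shTet3. Because it recovered 0% of simulated oxBS losses of 40 points, these counts of 0 are not informative. With promoters from -2 kb to +1 kb, the median promoter difference was -3.42 points and there were 84 promoter hypo-DMPs. The BS libraries gave 2 hyper-DMPs. The *Drd1a* promoter difference was -0.731 points at a coverage minimum of 20, and that of *Grm4* was 0.695 points when levels were weighted by reads. The cause of these changes was not tested.

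Leaving out 1 library at a time, called oxBS bodies ranged from 0 to 44 (44 without the first shScr oxBS library) and BS bodies from 0 to 32 (32 without the first shScr BS library). Promoter hypo-DMPs ranged from 21 to 45, body hypo-DMPs from 153 to 475 and hyper-DMPs from 0 to 11. CpGs with BS above oxBS in shScr ranged from 5 to 81, those below from 4 to 56, those above in shTet3 from 0 to 14 and those below from 0 to 5. The difference of the *Grik5* promoter ranged from -21.4 to 0.990 points and that of *Chrna4* from -0.0323 to 9.43. With 1 library left in a group, it was assumed to vary like the others. For every count given here except CpGs with BS below oxBS in shTet3, the same omitted library gave the highest count over all genes.

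With a replicate block, which the labels do not support across shRNAs, there were 44 promoter and 367 body hypo-DMPs and no limma call. With 2 samples a group, only differences large against the spread between replicates could be called.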
